A study of Rattus norvegicus with 28 samples.

Results

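Endothelial cells from hearts of DA rats grafted into Lewis recipients and taken on day 3 (allograft day 3, 3 arrays) were set against endothelial cells from non-grafted hearts of DA rats (normal DA, 3 arrays). The comparison therefore used 6 of the 28 Affymetrix arrays of the series, chosen by their titles, and ran across 14217 genes. DA is the Dark Agouti strain, and the hearts of both groups are of DA origin, so that the donor cells and the control share a genotype. All animals were male. Hearts had been placed in the neck of the recipient with cuffs. The hearts were minced, cells carrying CD45, a protein of all leukocytes, were removed with Dynabeads, and cells carrying CD31 (Pecam1), a junction protein of the vessel wall, were collected with MACS beads. Lewis hearts grafted into Lewis recipients (isograft day 3, 3 arrays), normal Lewis hearts (3 arrays), day 2 and day 4 allografts (each with 3 arrays), and 2 arrays of leukocytes of the Lewis recipients from day 3 allografts were used beside them. The CD31 sort also admits other cells with that protein, among them some leukocytes and platelets. Leukocytes of the recipient that escape the CD45 step would count with the graft and are of Lewis genotype. The arrays within a group are called biological replicates by the submitters, who do not say in the text used here whether an array stands for 1 animal or a pool. The p-values thus measure only the spread between arrays within a group. That spread was estimated over all 24 endothelial arrays of the series, not only the 6 of the comparison.

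The endothelium is the first donor tissue that recipient blood meets, and in a graft mismatched for transplantation antigens it is both a gate for leukocytes and a target of them. Selectins and adhesion receptors on activated endothelium slow and hold passing leukocytes, and chemokines guide them through the wall. Interferon gamma, a cytokine of activated T cells and natural killer cells, induces in endothelium the chemokines that attract T cells and the MHC class II molecules that show peptides to helper T cells.

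The sorted cells carried the transcripts of endothelium in both groups. Pecam1 read 12.35, 11.73 and 12.01 log2 on the allograft arrays, against 11.87, 12.18 and 11.70 log2 on the normal DA arrays. Von Willebrand factor (Vwf), the platelet-binding protein of endothelium, averaged 11.72 ± 0.24 log2 in allografts and 11.50 ± 0.0047 log2 in normal DA (SD, n = 3 each). The 21 endothelial markers had array means of 12.13, 11.90 and 11.91 log2 in allografts, against 12.10, 12.14 and 12.13 log2 in normal DA. None of these markers was called, by limma with an adjusted p under 0.05, but without allograft replicate 1 the receptors Kdr (-0.82 log2, adjusted p = 0.0174) and Eng (-0.85 log2, 0.0243) were lower. Leukocyte transcripts differed between the groups in spite of the CD45 step. The 22 pan-leukocyte markers had array means of 8.30, 8.83 and 8.42 log2 in allografts, against 7.14, 7.06 and 7.02 log2 in normal DA, with no overlap, and of 11.70 and 11.59 log2 in the day 3 leukocytes. In a bulk sample, a change in the number of cells of a type and a change in the RNA each cell holds cannot be told apart.

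Of the 14217 genes, 324 (2.28%) were called at an adjusted p under 0.05 in limma with Benjamini-Hochberg adjustment. Of these, 221 (1.55%) rose in day 3 allografts and 103 (0.724%) fell. The median difference over all genes was 0.0005 log2, and the median standard error (SE) of a difference was 0.17 log2. With a single array left out, the higher count fell to 123 without allograft replicate 2 and to 135 without normal DA replicate 2. The lower count fell to 45 without allograft replicate 2, 56 without allograft replicate 3, 45 without normal DA replicate 2 and 47 without normal DA replicate 3. In all 6 such fits 107 of the 221 and 24 of the 103 genes kept their call.

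**Figure D1:**
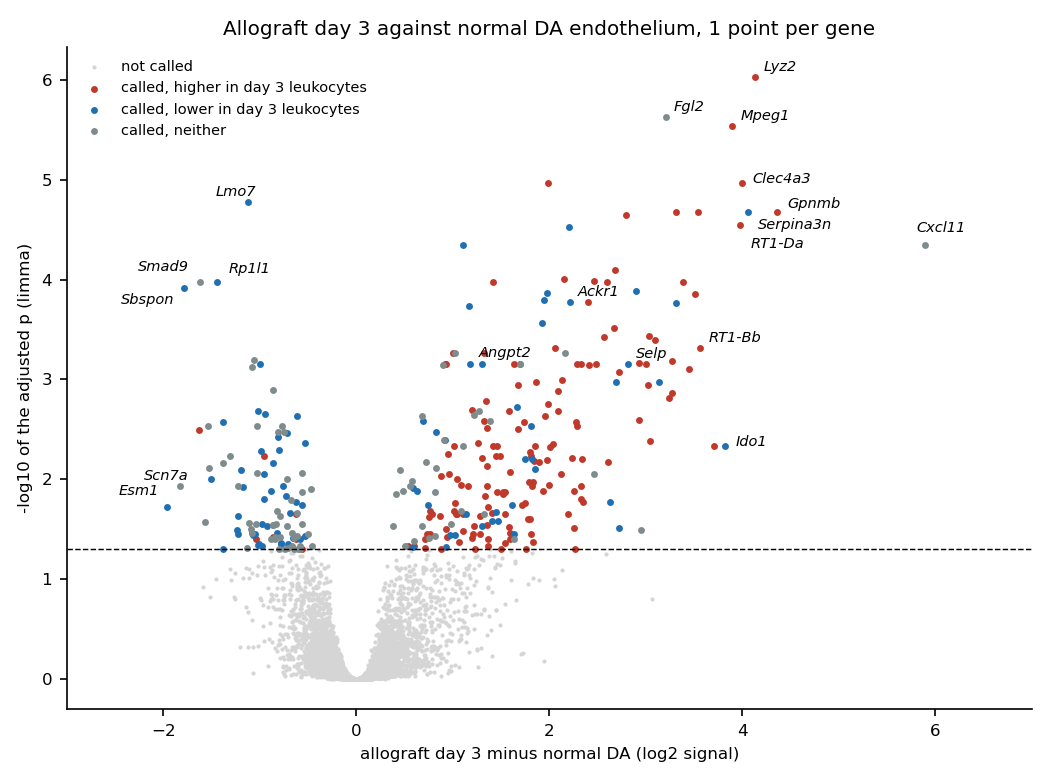
Difference between allograft day 3 and normal DA endothelium for each of 14217 genes (log2, horizontal) against the adjusted p of limma (minus log10, vertical), with the threshold of 0.05 as a dashed line. Of the 324 called genes 221 lie to the right of 0 and 103 to the left, coloured by whether the gene lay higher, lower or neither in day 3 leukocytes.

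The highest differences belonged to a chemokine of T cells, to macrophage transcripts, to MHC class II and to an acute-phase protein. Cxcl11, an interferon gamma-induced ligand of Cxcr3, a chemokine receptor of T cells, read 11.47, 12.61 and 12.57 log2 in allografts, against 6.59, 6.17 and 6.23 log2 in normal DA. The groups lay far apart, and the difference of 5.89 ± 0.70 log2 (SE, adjusted p = 4.5e-05) amounts to 59.2-fold. Gpnmb, a membrane glycoprotein of lipid-laden macrophages, read 10.14, 10.84 and 9.31 log2 in allografts, against 6.03, 5.38 and 5.80 log2 in normal DA, and rose 20.6-fold (4.36 ± 0.48 log2, adjusted p = 2.1e-05). Lysozyme (Lyz2), the bacteria-digesting enzyme of phagocytes, read 12.30, 13.19 and 12.61 log2 in allografts, against 8.71, 8.43 and 8.56 log2 in normal DA. It rose by 4.13 ± 0.33 log2 (adjusted p = 9.37e-07). Serpina3n, a secreted inhibitor of serine proteases made in inflammation, was the fourth.

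Serpina3n read 8.37, 8.76 and 8.64 log2 in allografts, against 4.71, 4.58 and 4.31 log2 in normal DA (16.6-fold, adjusted p = 2.1e-05). It lay far lower in the day 3 leukocytes, at 5.02 and 5.38 log2, than on any allograft array. The other 8 of the 12 highest were Clec4a3 (3.99 log2), a lectin receptor of myeloid cells, the class II chains RT1-Da (3.97 log2) and RT1-Bb (3.56 log2), the pore-forming protein Mpeg1 of macrophages (3.90 log2), Ido1 (3.83 log2), Il1b (3.70 log2), the Fc receptor gamma chain Fcer1g (3.54 log2) and the leukocyte tetraspanin Cd53 (3.51 log2). For Mpeg1 a second probe set gave 1.28 log2. Of the 12, 9 lay at least 2-fold higher in the leukocytes than in the allograft endothelium, and Cxcl11, Serpina3n and Ido1 did not.

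**Figure D2:**
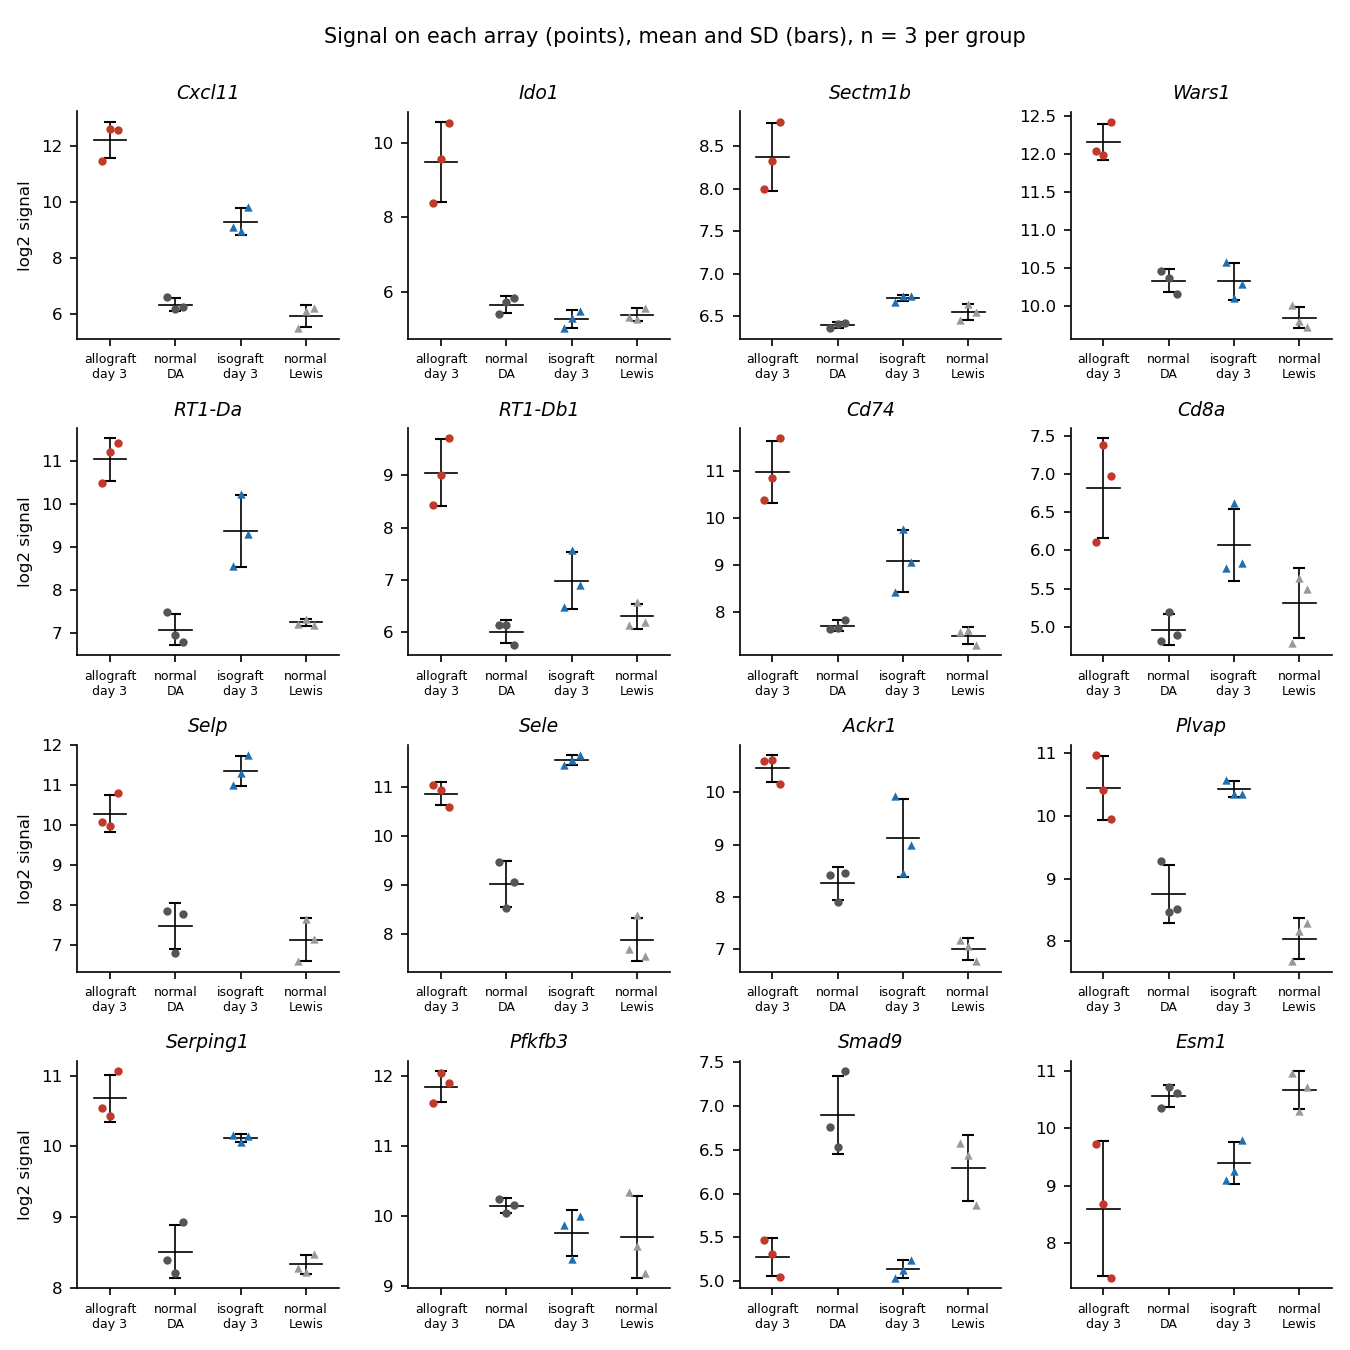
Log2 signal on each array (points) with the mean and SD of 3 arrays (bars) for 16 called genes, in allograft day 3, normal DA, isograft day 3 and normal Lewis endothelium from left to right. Cxcl11 lies at 11.47 to 12.61 log2 in allografts, against 6.17 to 6.59 log2 in normal DA.

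The gene lists counted from here on were chosen with earlier results of these data known, so their counts are descriptions and no independent support. Over all genes 1.55% were called higher and 0.724% lower, so a list with a single call or none says little about its process. Of 17 measured effectors of the interferon gamma response, 6 rose (35.3%), 0 fell and 11 were not called, with a median of 1.29 log2, and all 17 differences were positive. The 6 were Cxcl11, Ido1, Ubd, Cxcl9, Sectm1b and Wars1, and none of them lay higher in the day 3 leukocytes. Ido1, which degrades tryptophan and thereby restrains T cells, read 8.38, 9.57 and 10.52 log2 in allografts, against 5.41, 5.74 and 5.83 log2 in normal DA, and rose 14.2-fold (3.83 ± 0.73 log2, adjusted p = 0.00464). All 3 allograft arrays lay above all normal DA arrays, with allograft replicate 1 the lowest of them. Ubd, a ubiquitin-like tag for degradation, read 13.41, 13.96 and 13.68 log2 in allografts, against 9.88, 10.76 and 11.02 log2 in normal DA, and rose 8.78-fold (3.13 ± 0.51 log2, adjusted p = 0.00105). In leukocytes it read 11.52 and 12.69 log2, below the allograft endothelium.

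Wars1, the tryptophanyl-tRNA synthetase, read 12.04, 11.99 and 12.42 log2 in allografts, against 10.47, 10.38 and 10.17 log2 in normal DA (3.52-fold, adjusted p = 0.00295). Sectm1b, whose human relative SECTM1 binds a receptor of T cells, averaged 8.37 ± 0.40 log2 in allografts and 6.40 ± 0.037 log2 in normal DA (SD, n = 3 each; 3.93-fold, limma adjusted p = 0.000136). Both genes separated the groups without overlap. Cxcl9, a further ligand of Cxcr3, rose by 2.72 ± 0.66 log2 (adjusted p = 0.0309). Its call was lost without normal DA replicate 2 (2.48 log2, adjusted p = 0.158), normal DA replicate 3 (2.67 log2, 0.108), allograft replicate 2 (2.66 log2, 0.115) or allograft replicate 3 (2.52 log2, 0.139). Cxcl10, which binds Cxcr3 too, averaged 11.53 ± 0.56 log2 in allografts and 8.95 ± 0.49 log2 in normal DA (SD), and its difference of 2.59 ± 0.69 log2 had an adjusted p of 0.056. The guanylate-binding protein Gbp2 differed by 1.29 ± 0.35 log2 (adjusted p = 0.0632). The array means of the 17 effectors were 10.11, 10.53 and 10.56 log2 in allografts, against 8.60, 8.54 and 8.77 log2 in normal DA.

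Of 18 transducers of interferon signals, Irf8, a transcription factor of myeloid cells, rose (1.81 ± 0.45 log2, adjusted p = 0.0351) and 0 fell, with a median of 0.04 log2. Irf8 lay higher in the leukocytes and lost its call when normal DA replicate 1 (1.67 log2, adjusted p = 0.134), normal DA replicate 2 (1.75 log2, 0.136), normal DA replicate 3 (2.00 log2, 0.0558), allograft replicate 2 (1.91 log2, 0.0864) or allograft replicate 3 (1.45 log2, 0.21) was left out. Irf1, the transcription factor that interferon gamma induces early, read 12.84, 13.18 and 13.51 log2 in allografts, against 13.16, 13.06 and 13.40 log2 in normal DA, and the groups overlapped.

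Of 28 antiviral genes of the type I interferon response, 0 were called in either direction, and the median was -0.25 log2 (-0.11 log2 without normal DA replicate 3 and -0.12 log2 without allograft replicate 2). Only 7 of the 28 differences were positive. The helicase Ifih1, which senses viral RNA, read 8.17, 7.76 and 7.79 log2 in allografts, against 8.56, 8.73 and 8.49 log2 in normal DA (-0.68 ± 0.23 log2, adjusted p = 0.158). The antiviral GTPase Mx2 differed by -0.73 ± 0.49 log2 and the ubiquitin-like Isg15 by -0.54 ± 0.46 log2. The array means of the list were 10.12, 9.92 and 10.11 log2 in allografts, against 10.17, 10.14 and 10.40 log2 in normal DA.

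Of the 50 gene lists, MHC class II was the one with the largest share of called members. Of 8 measured genes, 6 rose and 0 fell, with a median of 2.59 log2, and the same count of 6 was found without any single array. RT1-Da, the alpha chain of the rat D molecule, read 10.49, 11.22 and 11.43 log2 in allografts, against 7.47, 6.95 and 6.79 log2 in normal DA, and rose 15.7-fold (3.97 ± 0.45 log2, adjusted p = 2.85e-05). RT1-Db1, its beta chain, read 8.43, 9.01 and 9.71 log2 in allografts, against 6.13, 6.15 and 5.76 log2 in normal DA (8.21-fold, adjusted p = 0.000369). RT1-Bb, the beta chain of the B molecule, read 9.55, 10.02 and 10.79 log2 in allografts, against 6.79, 6.46 and 6.42 log2 in normal DA (11.8-fold, adjusted p = 0.000482). No allograft array overlapped a normal DA array for these chains. A further probe set gave 1.42 log2 for RT1-Db1 and -0.05 log2 for RT1-Bb.

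The genes that load class II molecules rose with the chains. Cd74, the invariant chain that guards the peptide groove, read 10.39, 10.86 and 11.71 log2 in allografts, against 7.64, 7.65 and 7.84 log2 in normal DA (9.68-fold, adjusted p = 0.000649). RT1-DMa and RT1-DMb, the subunits of the peptide exchanger, rose by 1.86 ± 0.30 log2 (adjusted p = 0.00105) and 2.15 ± 0.27 log2 (adjusted p = 9.92e-05). The alpha chain RT1-Ba (0.09 ± 0.19 log2, adjusted p = 0.978) and the class II transactivator Ciita (0.61 ± 0.36 log2, adjusted p = 0.636) were not called. The 4 probe sets of RT1-Ba disagreed, at 0.09 to 3.78 log2, and it was called with the mean of them (1.10 log2, limma adjusted p = 0.000539) or with the most variable one (3.78 log2, 3.76e-05). All 6 called genes lay at least 2-fold higher in the day 3 leukocytes, where RT1-Da read 14.26 and 14.15 log2. The leukocyte part in the class II differences was not tested.

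Class II promoters carry a Y box, an inverted CCAAT motif bound by NF-Y, and the stretches before the start of the 3 called chain genes are shown because each holds it. The sequences are from RefSeq (GRCr8), run from 140 to 31 bases before the start on the gene's strand, and have the letters CTGATTGG in capitals. RT1-Da lies on the plus strand at chr20:4515275-4515384, RT1-Db1 on the minus strand at chr20:4560193-4560302 and RT1-Bb on the minus strand at chr20:4604149-4604258.
RT1-Da: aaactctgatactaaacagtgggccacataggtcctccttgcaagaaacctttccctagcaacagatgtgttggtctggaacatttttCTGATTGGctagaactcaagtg
RT1-Db1: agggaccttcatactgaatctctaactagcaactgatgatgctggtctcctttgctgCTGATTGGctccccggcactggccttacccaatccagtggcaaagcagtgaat
RT1-Bb: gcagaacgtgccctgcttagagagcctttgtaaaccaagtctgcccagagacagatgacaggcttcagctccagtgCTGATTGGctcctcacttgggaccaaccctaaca
In the 250 bases before the start, read on both strands, these letters stood in 3 of the 5 called class II genes with a promoter entry (60%) and in 2 of the 5 called interferon gamma effectors with an entry (40%), Wars1 and Cxcl9, against 3.19% of all 33469 promoters. The NF-kB core GGGNNTTCC stood in 3 of the 5 called effectors, which were Wars1, Cxcl9 and Ubd, against 5.09% of all promoters. The interferon-stimulated response element core GAAANNGAA stood in 0 of them (8.12% of all) and the GAS core TTCNNNGAA in 1, Cxcl11 (7.67% of all). These counts describe letters in the windows.

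The class I pathway, which shows peptides to killer T cells, had no called gene among the list members measured. RT1-A1, RT1-A2, RT1-CE1, RT1-T24-1 and Tapbpl of that list were not measured. The largest difference was that of RT1-CE5 (1.16 log2, not called), whose probe sets ran from 0.07 to 1.16 log2. Of 15 genes of class I and peptide loading, 0 rose or fell (median 0.22 log2), and of 19 proteasome genes 0 rose or fell (median 0.27 log2, and 0.14 log2 without allograft replicate 3). The peptide pump Tap1 read 11.28, 11.25 and 11.50 log2 in allografts, against 10.38, 10.56 and 10.78 log2 in normal DA. The difference of 0.77 ± 0.27 log2 had an adjusted p of 0.187. Psmb9, an interferon-induced proteasome subunit, read 12.09, 12.36 and 12.48 log2 in allografts, against 11.32, 11.46 and 11.57 log2 in normal DA (0.86 ± 0.28 log2, adjusted p = 0.132). Both genes separated the groups without overlap, by less than the test required.

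Of 17 adhesion genes, among them receptors with which endothelium catches leukocytes, 5 rose and 0 fell, with a median of 0.18 log2. P-selectin (Selp), on which leukocytes roll, averaged 10.28 ± 0.45 log2 in allografts and 7.47 ± 0.58 log2 in normal DA (SD, n = 3 each; 7.02-fold, limma adjusted p = 0.000706), while a second probe set of it gave 0.21 log2. Ackr1, the chemokine-binding receptor of venules, read 10.61, 10.61 and 10.17 log2 in allografts, against 8.42, 7.90 and 8.45 log2 in normal DA (4.63-fold, adjusted p = 0.000169). E-selectin (Sele), which also supports rolling, read 11.05, 10.95 and 10.60 log2 in allografts, against 9.46, 8.52 and 9.06 log2 in normal DA (3.61-fold, adjusted p = 0.0078). For all of them the groups stood clear of each other.

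Vcam1, which holds lymphocytes and monocytes, rose by 1.31 ± 0.32 log2 (adjusted p = 0.0296). Spn, a sialoprotein of leukocytes themselves, rose by 2.09 ± 0.35 log2 (adjusted p = 0.00131) and was the called adhesion gene that lay higher in leukocytes, whereas Selp, Sele, Ackr1 and Vcam1 lay lower there. Icam1, the integrin ligand of activated endothelium, read 9.83, 10.18 and 10.72 log2 in allografts, against 9.72, 9.73 and 10.58 log2 in normal DA, with overlapping groups (adjusted p = 0.984). The Sele call was lost without normal DA replicate 2 (1.60 log2, adjusted p = 0.0678), which left 3 adhesion genes called. The Vcam1 call was lost without normal DA replicate 1 (1.38 log2, 0.0622), normal DA replicate 2 (1.06 log2, 0.208), allograft replicate 1 (1.37 log2, 0.0517), allograft replicate 2 (1.22 log2, 0.13) or allograft replicate 3 (1.33 log2, 0.0828).

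Of 15 chemokines of the CC family 6 rose and 0 fell, with a median of 0.65 log2 that was 0.27 log2 without allograft replicate 3. Ccl6, a chemokine of myeloid cells in rodents, read 7.85, 8.91 and 8.91 log2 in allografts, against 4.51, 5.64 and 5.19 log2 in normal DA, and rose 10.9-fold (adjusted p = 0.00079). Ccl5, which attracts T cells and monocytes, read 8.23, 10.86 and 9.46 log2 in allografts, against 7.15, 7.17 and 7.22 log2 in normal DA (5.05-fold, adjusted p = 0.00632). The normal DA arrays lay close together, and the allograft arrays spread widely above them. Ccl19, which guides cells that carry Ccr7, rose by 1.10 ± 0.21 log2 (adjusted p = 0.00463) and was the called CC chemokine that did not lie higher in leukocytes.

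The monocyte attractants Ccl3 (1.83 ± 0.39 log2, adjusted p = 0.0107), Ccl4 (1.80 ± 0.42 log2, 0.0251) and Ccl7 (2.26 ± 0.55 log2, 0.0308) rose too. Without allograft replicate 2 or without normal DA replicate 2 the count of called CC chemokines was 3 in each case, and without normal DA replicate 1 it was 4. In the fit without allograft replicate 2, Ccl3 stood at 1.43 log2 (adjusted p = 0.0936), Ccl4 at 1.23 log2 (0.173) and Ccl7 at 2.21 log2 (0.115). Without normal DA replicate 2 they stood at 1.71 (0.0673), 1.71 (0.115) and 2.23 log2 (0.114). Ccl4 also lost its call without normal DA replicate 1 (1.86 log2, 0.0611) or 3 (1.82 log2, 0.0771), and Ccl7 without normal DA replicate 1 (2.04 log2, 0.132) or allograft replicate 3 (1.88 log2, 0.177). Ccl2, which draws monocytes too, averaged 10.89 ± 0.34 log2 in allografts and 9.60 ± 0.20 log2 in normal DA (SD), and was not called (1.29 ± 0.48 log2, adjusted p = 0.223). Among 12 CXC, CX3C and C chemokines kept apart from the interferon list, 0 were called, and the neutrophil attractant Cxcl2 differed by 1.83 ± 0.55 log2 (adjusted p = 0.0974) and was called without allograft replicate 1 (2.43 log2, 0.0185).

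Of 27 inflammatory genes driven by NF-kB, Il1b rose and 0 fell, with a median of 0.29 log2. Il1b, the fever cytokine of myeloid cells, read 7.92, 9.83 and 9.73 log2 in allografts, against 5.46, 5.62 and 5.29 log2 in normal DA (13-fold, adjusted p = 0.00463), and 13.13 and 13.56 log2 in leukocytes. Tnf, a cytokine that activates endothelium, read 9.57, 10.27 and 10.30 log2 in allografts, against 10.96, 11.30 and 11.74 log2 in normal DA. Each allograft array lay below each normal DA array for Tnf, and the difference of -1.29 ± 0.39 log2 had an adjusted p of 0.103. Of 17 Toll-like receptor genes and adaptors, Tlr2 (1.63 ± 0.25 log2, adjusted p = 0.000706) and its partner in binding microbial products Cd14 (1.95 ± 0.34 log2, adjusted p = 0.00233) rose, and both lay higher in leukocytes. Of 14 costimulatory and checkpoint ligands, Vsir, which restrains T cells, rose (0.95 ± 0.18 log2, adjusted p = 0.00561).

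Complement, which tags targets for phagocytes, rose in 8 of 17 measured genes and fell in 0, with a median of 1.33 log2. C1qa, C1qb and C1qc encode the chains of C1q, the antibody-binding unit. C1qa read 8.40, 8.86 and 8.93 log2 in allografts, against 6.37, 5.98 and 5.80 log2 in normal DA (6.42-fold, adjusted p = 7.93e-05). C1qb rose by 2.01 ± 0.38 log2 (adjusted p = 0.00478) and C1qc by 1.81 ± 0.35 log2 (adjusted p = 0.00583), and the 3 chains lay at least 2-fold higher in leukocytes. The C1 inhibitor Serping1 read 10.55, 10.43 and 11.06 log2 in allografts, against 8.40, 8.21 and 8.93 log2 in normal DA (4.48-fold, adjusted p = 0.000547). The proteases of the C1 complex rose with it, C1s by 2.46 ± 0.51 log2 (adjusted p = 0.00888) and C1r by 1.33 ± 0.31 log2 (adjusted p = 0.0221). Serping1, C1s and C1r did not lie higher in leukocytes.

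Cfd, the factor D protease of the alternative pathway, rose by 2.12 ± 0.44 log2 (adjusted p = 0.00888), and C5ar1, the receptor of the anaphylatoxin C5a, by 1.46 ± 0.32 log2 (adjusted p = 0.0133). Both lay higher in leukocytes. The central component C3 read 6.23, 6.66 and 6.46 log2 in allografts, against 4.94, 5.17 and 4.95 log2 in normal DA, and was not called (1.43 ± 0.41 log2, adjusted p = 0.0781). The complement count fell to 5 without allograft replicate 2 or without normal DA replicate 1. In the fit without allograft replicate 2, C1r (1.40 log2, adjusted p = 0.0611), Cfd (1.87 log2, 0.0738) and C5ar1 (1.29 log2, 0.0936) lost their calls. In the fit without normal DA replicate 1, C1r (1.19 log2, 0.11), C1s (2.22 log2, 0.055) and C5ar1 (1.35 log2, 0.0695) lost theirs. C1r also lost its call without normal DA replicate 2 (1.38 log2, 0.067), allograft replicate 1 (1.35 log2, 0.051) or allograft replicate 3 (1.24 log2, 0.103), and C1s without normal DA replicate 2 (2.25 log2, 0.0653) or allograft replicate 3 (2.28 log2, 0.0515). Of 21 coagulation and fibrinolysis genes 0 were called (median 0.17 log2).

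**Figure D3:**
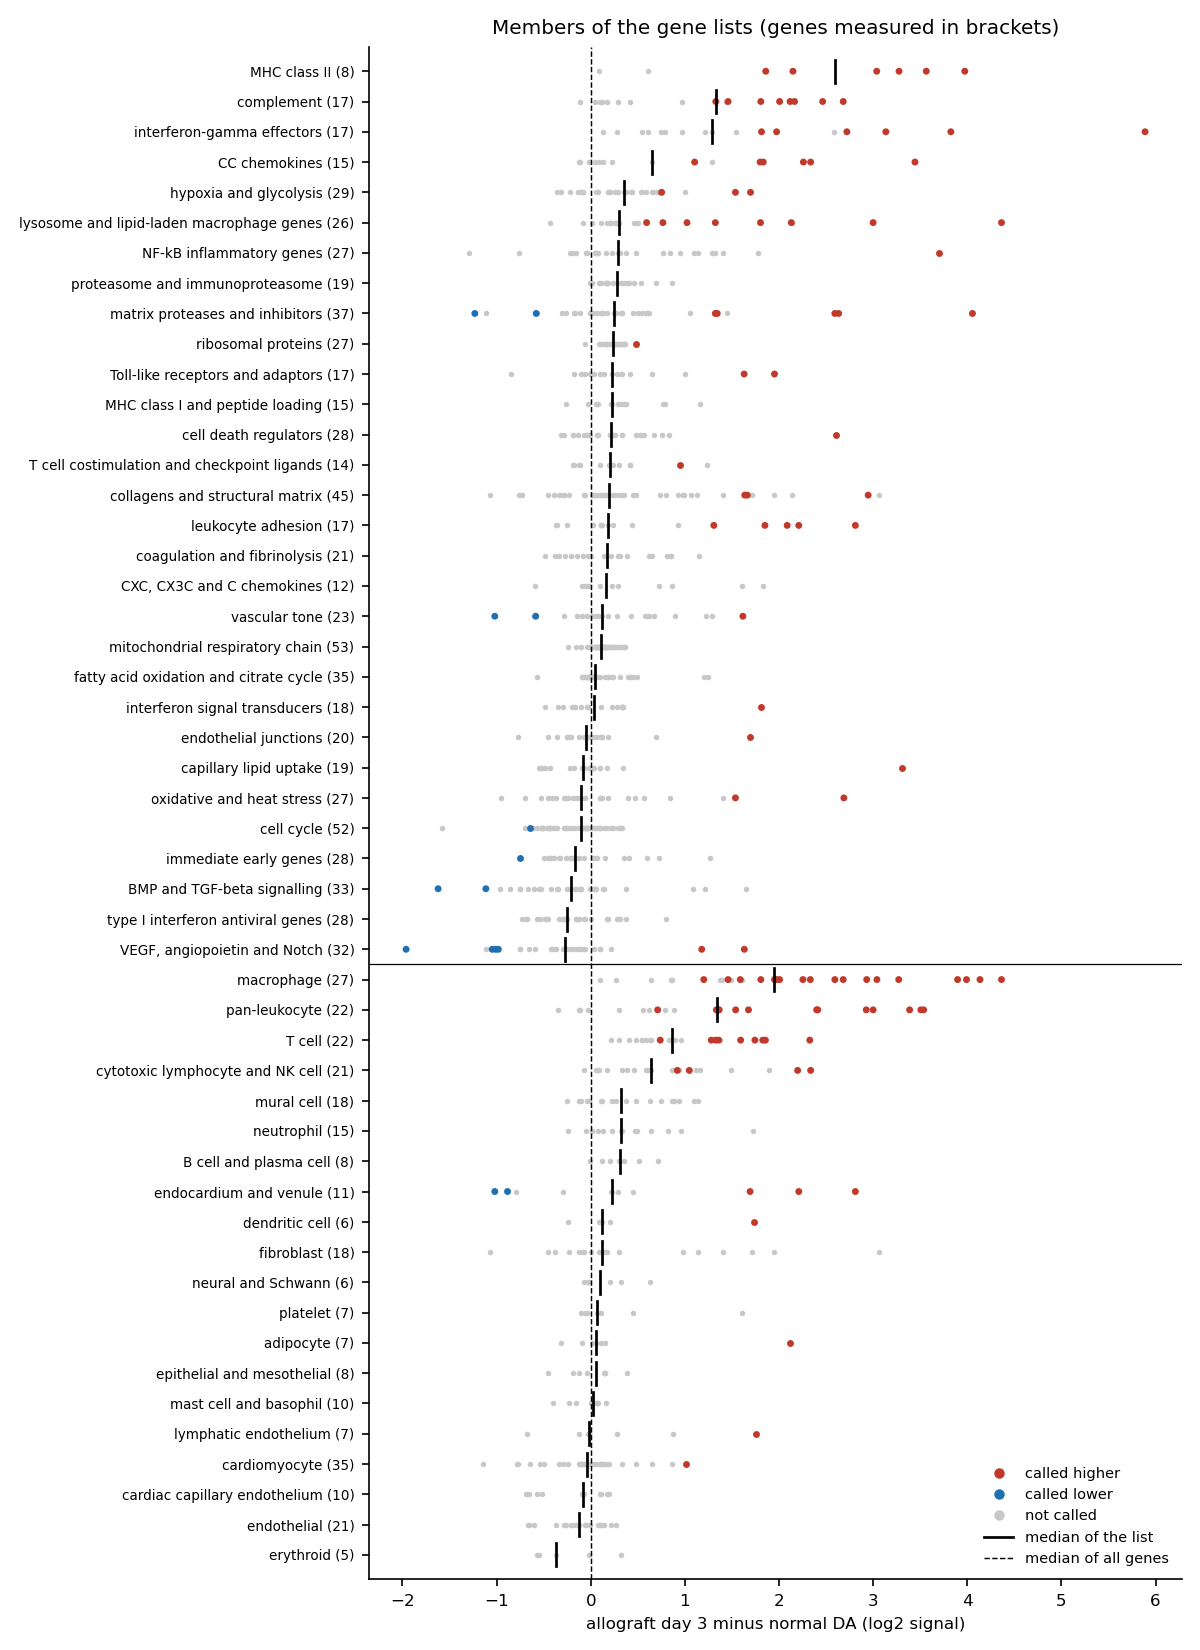
Difference between allograft day 3 and normal DA endothelium (log2, horizontal) for each member of each gene list (rows, measured members in brackets), with process lists above the line and cell type lists below. Coloured points were called, grey points were not, and the black bar is the median of the list. Macrophage markers have 18 of 27 members higher, MHC class II 6 of 8, complement 8 of 17, and the type I interferon list 0 of 28.

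Growth and guidance signals of the vessel wall moved in both directions. Of 32 genes of the VEGF, angiopoietin and Notch pathways 2 rose and 4 fell, with a median of -0.27 log2. Angpt2, which loosens the contact of endothelium with its support cells, read 10.78, 11.36 and 10.98 log2 in allografts, against 9.75, 9.87 and 9.97 log2 in normal DA (2.26-fold, adjusted p = 0.000695). Pgf, a growth factor of the VEGF family, rose by 1.63 ± 0.41 log2 (adjusted p = 0.0354). Esm1, a proteoglycan that VEGF induces in tip cells of sprouts, read 9.73, 8.68 and 7.40 log2 in allografts, against 10.35, 10.72 and 10.62 log2 in normal DA (-1.96 ± 0.45 log2, adjusted p = 0.0191). It was the largest fall of all called genes with a symbol covered by the naming rule, and its allograft arrays spread over more than 2 log2.

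The Notch ligand Jag2 read 8.79, 8.03 and 7.98 log2 in allografts, against 9.19, 9.34 and 9.23 log2 in normal DA (-0.98 ± 0.19 log2, adjusted p = 0.00515). Vegfc, the growth factor of lymphatic vessels, fell by 1.05 log2 (SE 0.26, adjusted p = 0.0357) and the netrin receptor Unc5b by 1.01 log2 (SE 0.26, adjusted p = 0.0442). Kdr, the main VEGF receptor of endothelium, read 12.94, 12.60 and 12.30 log2 in allografts, against 13.21, 13.36 and 13.23 log2 in normal DA, without overlap and without a call (adjusted p = 0.0542). With a single array left out, 1 or 2 genes of these pathways were called higher and 1 to 6 lower. The lowest of these counts, 1 higher and 1 lower, came without allograft replicate 3 or normal DA replicate 3, and 6 lower came without allograft replicate 1. Without normal DA replicates 1 or 2 or allograft replicate 2 the counts were 1 higher and 2 lower. Esm1 lost its call without normal DA replicate 2 (-1.88 log2, adjusted p = 0.0919), normal DA replicate 3 (-1.93 log2, 0.0733), allograft replicate 2 (0.0678) or allograft replicate 3 (-1.36 log2, 0.139). Pgf lost it in each fit except that without allograft replicate 1 (1.09 to 1.72 log2), Unc5b in each except those without allograft replicate 1 or normal DA replicate 2 (-0.68 to -1.03 log2) and Vegfc in all 6 (-0.91 to -1.13 log2).

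The BMP and TGF-beta list had 0 of 33 genes higher and 2 lower, with a median of -0.21 log2. Smad9, a transducer of BMP signals, read 5.47, 5.31 and 5.05 log2 in allografts, against 6.76, 6.53 and 7.40 log2 in normal DA (-1.62 ± 0.21 log2, adjusted p = 0.000105). A second probe set of Smad9 gave 0.01 log2. Smad7, a feedback inhibitor of both branches, fell by 1.11 log2 (SE 0.27, adjusted p = 0.0277), and its call was lost without allograft replicate 2 (-1.06 log2, 0.117), allograft replicate 3 (-0.98 log2, 0.146), normal DA replicate 1 (-1.12 log2, 0.0798), normal DA replicate 2 (-1.15 log2, 0.0798) or normal DA replicate 3 (-1.07 log2, 0.107). The 3 probe sets of Smad7 ran from -1.11 to -0.23 log2. The count of lower BMP and TGF-beta genes was 4 without allograft replicate 1. In the vascular tone list 1 of 23 genes rose and 2 fell. The angiotensin receptor Agtr1a rose by 1.62 ± 0.36 log2 (adjusted p = 0.018), the natriuretic peptide clearance receptor Npr3 read 6.20, 5.82 and 6.15 log2 in allografts, against 7.25, 7.02 and 6.96 log2 in normal DA (-1.02 ± 0.18 log2, adjusted p = 0.00205), and Ddah2, which degrades an inhibitor of nitric oxide synthase, fell by 0.58 log2 (SE 0.15, adjusted p = 0.0395). Agtr1a lost its call without allograft replicate 3 or any of the normal DA arrays (1.27 to 1.65 log2), and Ddah2 in all 6 fits with an array left out (-0.50 to -0.65 log2). The list thus had 1 lower gene in each of these fits, and 0 higher without allograft replicate 3 or normal DA replicate 2 or 3. Klf4, a transcription factor of quiescent endothelium that was counted among 28 immediate early genes, read 12.85, 12.97 and 13.07 log2 in allografts, against 13.39, 13.88 and 13.88 log2 in normal DA. It fell by 0.75 log2 (SE 0.14, adjusted p = 0.00333) and was the called gene of that list.

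The other 10 of the 12 lowest genes are known from varied tasks. Sbspon, a secreted matrix protein, read 5.38, 4.91 and 5.14 log2 in allografts, against 7.29, 6.64 and 6.84 log2 in normal DA (-1.78 ± 0.23 log2, adjusted p = 0.00012). Ltbp4, which tethers latent TGF-beta to the matrix, read 11.54, 10.91 and 11.59 log2 in allografts, against 12.54, 12.78 and 12.85 log2 in normal DA (-1.38 ± 0.25 log2, adjusted p = 0.00268). Rp1l1, a protein known from photoreceptors, averaged 5.18 ± 0.22 log2 in allografts and 6.62 ± 0.053 log2 in normal DA (SD), a difference of -1.44 ± 0.18 log2 (SE, adjusted p = 0.000105). In each of these genes all allograft arrays lay below all normal DA arrays. Also called were the glutaminyl cyclase Qpct (-1.63 log2, adjusted p = 0.00323), the actin-assembling formin Fhod3 (-1.54 log2, 0.00295) and Kctd4 (-1.38 log2, 0.00691). The sodium channel Scn7a (-1.82 log2, 0.0118), the retinal dehydrogenase Aldh1a1 (-1.57 log2, 0.0267), the intermediate filament nestin (Nes, -1.53 log2, 0.00771) and the secreted protein Wfdc1 (-1.51 log2, 0.00993) completed them.

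Among these 10, the calls of Sbspon, Qpct, Fhod3, Rp1l1 and Ltbp4 held in all 6 fits with an array left out. Kctd4 lost it without normal DA replicate 2 (-1.14 log2, adjusted p = 0.0675). Scn7a lost it without normal DA replicate 2 (-1.75 log2, 0.0653), allograft replicate 2 (-1.71 log2, 0.0739) or allograft replicate 3 (-1.78 log2, 0.0503). Nes lost it without normal DA replicate 1 (-1.29 log2, 0.0576), allograft replicate 2 (-1.31 log2, 0.0706) or allograft replicate 3 (-1.33 log2, 0.0547), and Wfdc1 without normal DA replicate 3 (-1.30 log2, 0.075) or allograft replicate 2 (-1.09 log2, 0.0851). Aldh1a1 lost it in each fit except that without normal DA replicate 2 (-1.35 to -1.61 log2). Lmo7, an actin-linked junction protein chosen after its values were seen, had the smallest adjusted p among the genes that fell. It read 10.34, 10.65 and 10.37 log2 in allografts, against 11.54, 11.54 and 11.63 log2 in normal DA (-1.12 ± 0.12 log2, adjusted p = 1.68e-05).

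Of 20 junction genes Plvap, the diaphragm protein of fenestrae that marks leaky vessels, rose, and it read 10.97, 10.42 and 9.95 log2 in allografts, against 9.29, 8.46 and 8.51 log2 in normal DA (3.23-fold, adjusted p = 0.000706). Of 19 genes of capillary lipid uptake Angptl4, an inhibitor of lipoprotein lipase, rose, and it averaged 10.03 ± 0.69 log2 in allografts and 6.72 ± 0.27 log2 in normal DA (SD; 9.9-fold, adjusted p = 0.000171). Both genes lay lower in leukocytes. Of 29 hypoxia and glycolysis genes 3 rose. Pfkfb3, which speeds glycolysis, read 11.61, 12.04 and 11.90 log2 in allografts, against 10.25, 10.04 and 10.16 log2 in normal DA (3.24-fold, adjusted p = 0.000706), while another probe set gave 0.06 log2. Pgk1, an enzyme of glycolysis, rose by 0.75 ± 0.18 log2 (adjusted p = 0.0238) and lost its call in each fit with an array left out except that without normal DA replicate 1 (0.68 to 0.80 log2). The 3 probe sets of Pgk1 ran from 0.06 to 0.77 log2. The hypoxia list had 1 called gene without allograft replicate 2 or 3 or normal DA replicate 2 or 3. Its median was 0.35 log2, and 0.18 log2 without allograft replicate 3.

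Mt2A, a metal-binding stress protein, read 10.86, 11.32 and 13.20 log2 in allografts, against 8.59, 9.43 and 9.30 log2 in normal DA (6.45-fold, adjusted p = 0.00105). It was 1 of 2 called genes among 27 of oxidative and heat stress. The other was heme oxygenase Hmox1 (1.54 ± 0.39 log2, adjusted p = 0.0435), which lost its call in each such fit except that without allograft replicate 1 (1.26 to 1.70 log2). Hmox1 was also the third called gene of the hypoxia list. The stress list had 1 called gene in all of these fits except that without allograft replicate 1. Of 52 cell cycle genes 0 rose and Ccnd3, a cyclin of the first growth phase, fell by 0.65 log2 (SE 0.16, adjusted p = 0.039), a call lost in each of the 6 fits (-0.57 to -0.72 log2). This is 1.92% of the list, beside 0.724% of all genes that fell. The median of the cell cycle list was -0.11 log2, but 0.16 log2 without normal DA replicate 1 and -0.32 log2 without normal DA replicate 3, so that its sign rests on single arrays. Genes of the mitochondrial respiratory chain (53 measured) and of fatty acid oxidation and the citrate cycle (35) had 0 called, with medians of 0.11 and 0.04 log2. Of 27 ribosomal proteins Rplp0 rose by 0.48 ± 0.10 log2 (adjusted p = 0.013), which was not called without allograft replicate 2 (0.45 log2, 0.0815), normal DA replicate 2 (0.46 log2, 0.0736) or normal DA replicate 3 (0.48 log2, 0.0576). Of 28 cell death regulators Bcl2a1, a survival factor of leukocytes, rose (2.61 ± 0.52 log2, adjusted p = 0.00667), and without allograft replicate 2 it was not called (2.32 log2, 0.059).

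Of 45 collagens and structural proteins 3 rose, of which the basement membrane collagen Col18a1 read 10.13, 9.35 and 9.93 log2 in allografts, against 8.68, 7.90 and 7.84 log2 in normal DA (3.17-fold, adjusted p = 0.00189). Tenascin C (Tnc), a matrix protein of tissue repair, read 8.42, 6.19 and 6.54 log2 in allografts, against 4.21, 3.99 and 4.11 log2 in normal DA (7.71-fold, adjusted p = 0.0319). Allograft replicate 1 stood well above the other two. Tnc lost its call in each fit with an array left out except that without allograft replicate 2 (2.26 log2 without allograft replicate 1), and Col12a1 (1.64 ± 0.42 log2, adjusted p = 0.04, 0.05 log2 in another probe set) in all 6 (1.35 to 1.79 log2). The list then had 2 called genes without allograft replicate 2 and 1 without any other array. Fibroblast markers, which share matrix transcripts, had an array mean of 8.68 log2 in allograft replicate 1 and of 7.42 and 7.36 log2 in the other allograft arrays, against 7.52, 6.97 and 7.55 log2 in normal DA. Their part in the matrix differences was not tested. Of 37 matrix proteases and inhibitors 5 rose and 2 fell. The aggrecanase Adamts4 rose by 2.63 ± 0.59 log2 (adjusted p = 0.017), and Adamts5, a protease of the same family, read 9.16, 8.62 and 7.85 log2 in allografts, against 9.88, 9.86 and 9.57 log2 in normal DA (-1.23 ± 0.30 log2, adjusted p = 0.0319). Adam17, which sheds Tnf and adhesion receptors, fell by 0.58 log2 (SE 0.15, adjusted p = 0.0494). Adamts4 lost its call without normal DA replicate 2, normal DA replicate 3 or allograft replicate 3 (2.10 to 2.61 log2), Adamts5 in each fit except that without allograft replicate 1 (-0.88 to -1.33 log2) and Adam17 in all 6 (-0.55 to -0.62 log2), so that 0 proteases were lower in each fit but that without allograft replicate 1. The others that rose were Serpina3n and 3 cathepsins of lysosomes, of which Ctss stood at 2.59 ± 0.33 log2 (adjusted p = 0.000105), and the cathepsins lay higher in leukocytes.

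Of 27 macrophage markers 18 rose and 0 fell, all 27 differences were positive, and the median was 1.95 log2. The array means were 7.72, 8.38 and 8.03 log2 in allografts, against 5.92, 5.96 and 6.03 log2 in normal DA. Csf1r, the receptor on which macrophages depend, read 8.24, 8.57 and 7.84 log2 in allografts, against 5.58, 5.78 and 6.28 log2 in normal DA (5.04-fold, adjusted p = 0.000706). The mannose receptor Mrc1 rose by 2.93 ± 0.52 log2 (adjusted p = 0.00253) and the actin-binding Aif1 by 3.27 ± 0.54 log2 (adjusted p = 0.00136), for which another probe set gave 0.25 log2. Of 26 genes of lysosomes and lipid-laden macrophages 8 rose, among them the lectin Lgals3 (1.80 ± 0.35 log2, adjusted p = 0.00529) and the cholesterol exporter Abca1 (2.13 ± 0.34 log2, adjusted p = 0.00102). The count was 5 without allograft replicate 1 or 2 or normal DA replicate 1 or 2, and 6 without either of the other arrays.

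Of the 22 pan-leukocyte markers 13 rose and 0 fell (median 1.34 log2). Among the 22 differences 18 were positive and 4 negative, with Cd52 the lowest at -0.34 log2. Ptprc, which encodes CD45, the protein used for depletion, read 7.80, 8.91 and 8.35 log2 in allografts, against 5.43, 5.44 and 5.41 log2 in normal DA (7.6-fold, adjusted p = 0.000686), and 12.37 and 12.32 log2 in leukocytes. A second probe set of Ptprc gave 1.61 log2. The integrin chain Itgb2 rose by 2.41 ± 0.38 log2 (adjusted p = 0.000723).

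Of 22 T cell markers 9 rose and 0 fell, with a median of 0.86 log2 and all 22 differences positive. The array means lay between 6.06 and 6.99 log2 in allografts, against 5.60 to 5.65 log2 in normal DA, with allograft replicate 1 the lowest of its group, and 9.52 and 9.68 log2 in leukocytes. The count of called markers was 13 without allograft replicate 1, 2 without allograft replicate 2, allograft replicate 3 or normal DA replicate 3, and 3 without normal DA replicate 1 or 2. Lck, the kinase next to the T cell receptor, read 8.26, 9.07 and 8.61 log2 in allografts, against 7.33, 7.35 and 7.27 log2 in normal DA (2.51-fold, adjusted p = 0.000547). Cd8a, the coreceptor of killer T cells, rose by 1.86 ± 0.35 log2 (adjusted p = 0.00464, 0.12 to 1.93 log2 over its probe sets). Both kept their calls without any single array. Cd3e, a chain of the receptor complex, read 6.89, 8.29 and 8.32 log2 in allografts, against 6.10, 6.06 and 6.10 log2 in normal DA (adjusted p = 0.0172) and lost its call in each fit except that without allograft replicate 1 (at 1.75 log2 or less).

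Of 21 cytotoxic lymphocyte and natural killer markers 4 rose (median 0.64 log2), and 2 to 8 were called with a single array left out. The 2 came without allograft replicate 2, allograft replicate 3 or normal DA replicate 1, and the 8 without allograft replicate 1. Granzyme A (Gzma), a protease of killer cells, read 5.07, 7.02 and 7.14 log2 in allografts, against 4.15, 4.26 and 4.24 log2 in normal DA (4.59-fold, adjusted p = 0.0221). Cxcr3, the receptor of Cxcl9, Cxcl10 and Cxcl11, read 6.46, 8.29 and 7.38 log2 in allografts, against 5.61, 6.12 and 5.62 log2 in normal DA (3.02-fold, adjusted p = 0.0395). Each of the 2 genes lost its call in each fit except that without allograft replicate 1, at 1.83 to 2.22 log2 for Gzma and 1.14 to 1.76 log2 for Cxcr3. Called markers of other cell types were Myh7, a myosin of heart muscle (1.01 ± 0.23 log2, adjusted p = 0.0207, lost at 0.73 to 1.03 log2 without allograft replicate 1 or 2 or normal DA replicate 1 or 3), among 35 cardiomyocyte genes, Cfd among 7 adipocyte genes and Pdpn (1.76 ± 0.46 log2, adjusted p = 0.0498, lost in all 6 fits at 1.59 to 2.01 log2) among 7 lymphatic endothelial genes. Another probe set of Myh7 gave -0.12 log2. Of the 35 cardiomyocyte genes 20 differences were negative (median -0.04 log2). Myh6 stood lowest at -1.14 log2 (not called, 0.075 log2 in another probe set). Of the 7 lymphatic genes 4 were negative (median -0.02 log2), and of the 7 adipocyte genes 2 (median 0.05 log2). Of 6 dendritic cell markers the integrin Itgax rose (1.74 ± 0.31 log2, adjusted p = 0.00268). Of 11 markers of endocardium and venules 3 rose, which were Selp, Ackr1 and Plvap, and 2 fell, Npr3 and the junction protein Cgnl1 (-0.88 ± 0.19 log2, adjusted p = 0.013). The Cgnl1 call was lost without allograft replicate 2 (-0.71 log2, 0.108) or normal DA replicate 1 (-0.74 log2, 0.0919). B cell (8 measured), neutrophil (15), mast cell (10), fibroblast (18), mural (18), erythroid (5), platelet (7), cardiac capillary (10), epithelial and mesothelial (8) and neural and Schwann cell (6) markers had 0 called, with medians from -0.37 log2 for erythroid (0.12 log2 without allograft replicate 3) to 0.32 log2 for mural and neutrophil markers.

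The called genes were set against the day 3 leukocytes, whose arrays had been normalized apart, after the median difference of 0.32 log2 had been taken off. A gene counted as higher or lower there at a difference of at least 2-fold with no overlap. Of the 221 genes that rose, 148 (67%) lay higher in leukocytes and 41 (18.6%) lower, against 10.1% and 9% of all genes. Of the 103 that fell, 7 (6.8%) lay higher in leukocytes and 45 (43.7%) lower. The leukocyte arrays also held heart muscle transcripts: of 35 cardiomyocyte genes 11 lay higher there and 0 lower, and Myh7 was among the 11. A higher level there thus does not by itself make a gene one of leukocytes. Among genes that rose and lay lower in leukocytes was Fgf23, the phosphate hormone of bone, chosen after its values were seen. It read 7.36, 7.69 and 8.31 log2 in allografts, against 4.99, 4.94 and 4.73 log2 in normal DA (7.46-fold, adjusted p = 0.000131), and 5.11 and 4.48 log2 in leukocytes. Fgl2, a membrane protease that forms thrombin, also chosen after its values were seen, read 11.87, 12.14 and 13.20 log2 in allografts, against 8.92, 9.08 and 9.60 log2 in normal DA (9.21-fold, adjusted p = 2.37e-06) and lay within 2-fold of the leukocytes. With the array mean of the pan-leukocyte markers as a covariate 0 genes were called in either direction. That mean does not overlap between the groups, so the fit has little left to separate them by. In it Cxcl11 stood at 6.11 log2 (adjusted p = 0.41), Ubd at 3.67 log2 (0.583), Ackr1 at 2.40 log2 (0.455), RT1-Da at 2.03 log2 (0.755), Lyz2 at 2.23 log2 (0.0708) and Il1b at -0.26 log2 (0.966).

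**Figure D4:**
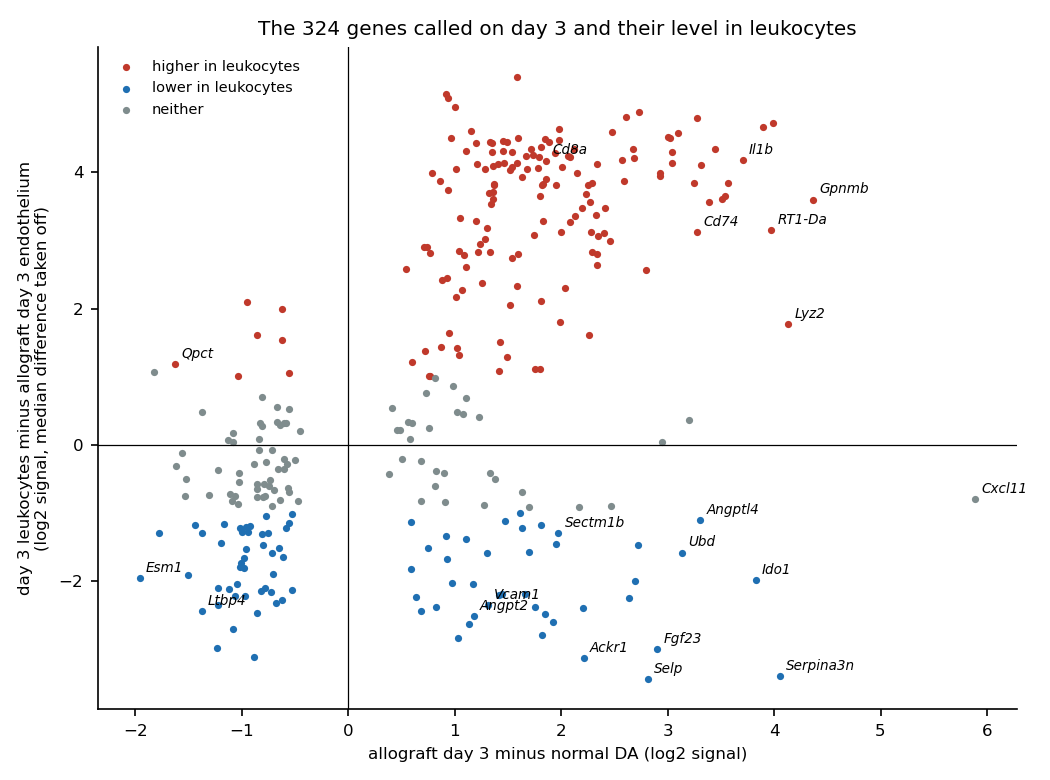
Difference between allograft day 3 and normal DA endothelium (log2, horizontal) against the difference between day 3 leukocytes and allograft day 3 endothelium (log2, vertical) for the 324 called genes, coloured by the class in leukocytes. Of the 221 genes to the right, 148 lie higher in leukocytes, among them RT1-Da and Lyz2, and 41 lie lower, among them Ido1, Ubd and Selp.

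Isografts of the same day, compared with normal Lewis endothelium, share no array with the allograft comparison in their group means. Both comparisons came from 1 fit over the 24 endothelial arrays, with a common estimate of the spread of each gene. The calls in the 2 comparisons are therefore not independent. They had 360 called genes (2.53%), of which 256 were higher (1.8%) and 104 lower (0.732%). Genes higher in both numbered 134, which is 60.6% of the allograft list and 52.3% of the isograft list, and genes lower in both numbered 28 (27.2% and 26.9%). The isograft difference had the same sign for 219 of the 221 allograft genes that rose and for 100 of the 103 that fell. The 221 genes chosen in allografts had a median of 1.59 log2 there and 1.15 log2 in isografts, and the 256 genes chosen in isografts had a median of 1.09 log2 in allografts and 1.42 log2 in isografts, so each list was larger where it was chosen. Macrophage markers stood at 1.95 log2 in allografts (18 of 27 higher) and 2.18 log2 in isografts (20 higher). Interferon gamma effectors stood at 1.29 log2 in allografts (6 of 17 higher) and 0.35 log2 in isografts (2 higher), MHC class II at 2.59 log2 (6 of 8 higher) and 1.08 log2 (2 higher), and T cell markers at 0.86 log2 (9 of 22 higher) and 0.30 log2 (1 higher).

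The difference between both changes was tested for every gene, and limma called 0 of 14217, with a smallest adjusted p of 0.943. At an unadjusted p under 0.05 stood 334 genes (2.35%), a share below the 0.05 that unchanged genes would give. Strain cannot be told apart from graft type in this test, since every allograft is DA and every isograft Lewis. Ido1 differed by 3.83 log2 in allografts and by -0.12 log2 in isografts, and the interval of the difference of changes was 1.80 to 6.10 log2. Its isograft arrays read 5.03, 5.30 and 5.51 log2, against 5.34, 5.28 and 5.59 log2 in normal Lewis. Sectm1b differed by 1.97 log2 in allografts and 0.16 log2 in isografts (interval of the difference 1.05 to 2.58 log2), and Pfkfb3 by 1.70 and 0.05 log2 (0.87 to 2.42 log2), each with an adjusted p of 0.943. Ccl5 differed by 2.34 log2 in allografts and 0.06 log2 in isografts (interval 0.91 to 3.64 log2) and RT1-Db1 by 3.04 and 0.68 log2 (1.07 to 3.64 log2). Sele differed by 1.85 log2 in allografts and 3.68 log2 in isografts (interval -2.94 to -0.73 log2). These intervals hold for single genes and are not adjusted for the 14217 tests. The genes shown were called in the allograft comparison, whose arrays also enter the difference of changes. Their intervals can thus lie too far from 0 and are no independent support. When the groups of this comparison were fitted alone, 3 genes passed, Ido1, Sectm1b and C3, and with array weights 2 passed.

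Days 2 and 4 of the allografts were compared with the same normal DA arrays, so their differences share those controls with day 3. Called genes numbered 850 on day 2 (5.98%), 324 on day 3 (2.28%) and 1627 on day 4 (11.4%). On day 2, 502 were higher (3.53%) and 348 lower (2.45%), and on day 4, 1022 were higher (7.19%) and 605 lower (4.26%). The interferon gamma effectors had medians of 0.04, 1.29 and 2.12 log2 on days 2, 3 and 4, and array means of 9.49, 9.23 and 7.68 log2 on day 2, of 10.11, 10.53 and 10.56 log2 on day 3 and of 10.40, 11.39 and 12.20 log2 on day 4. Wars1 differed from normal DA by 0.47, 1.81 and 2.74 log2 on days 2, 3 and 4, and Ido1 by 0.70, 3.83 and 5.39 log2. MHC class II had medians of 2.36, 2.59 and 3.46 log2 and the macrophage markers of 2.35, 1.95 and 2.94 log2. The type I interferon list had medians of -1.01, -0.25 and -0.12 log2, in which Mx2 stood at -2.16 log2 on day 2 (adjusted p = 0.0108), -0.73 log2 on day 3 and -0.72 log2 on day 4.

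**Figure D5:**
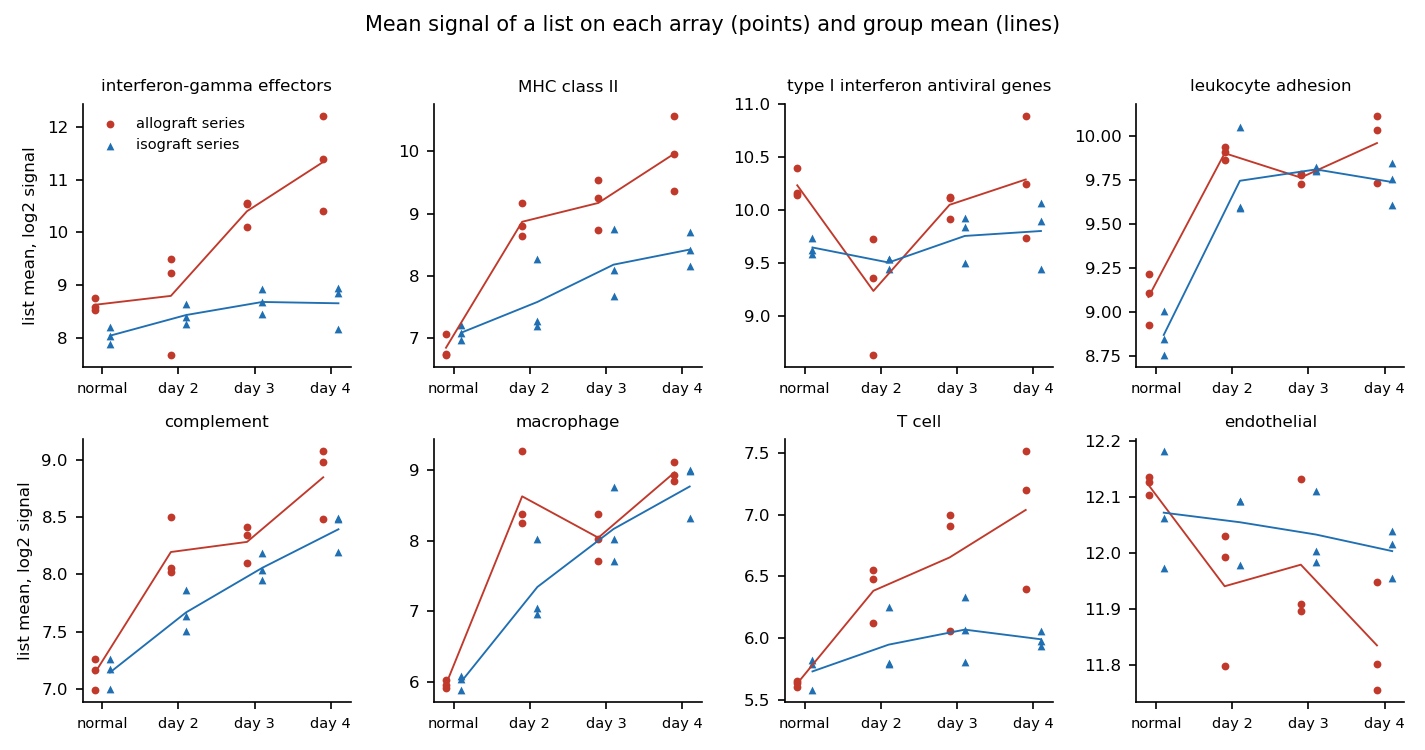
Mean log2 signal of the members of 8 lists on each array (points) with group means (lines) for normal hearts and grafts of days 2, 3 and 4, as circles for the allograft series (normal DA at the left end) and triangles for the isograft series (normal Lewis at the left end). The interferon gamma effectors lie at 10.11 to 10.56 log2 in day 3 allografts, against 8.54 to 8.77 log2 in normal DA.

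Day 3 was also tested directly against its neighbours. Between day 3 and day 2, 0 genes were called by limma, with 676 (4.75%) at an unadjusted p under 0.05. The smallest adjusted p, 0.0562, was that of the ADP-ribosyltransferase-like Art3 (1.55 log2). Between day 4 and day 3, 0 genes were called, with 1300 (9.14%) at an unadjusted p under 0.05 and a smallest adjusted p of 0.162. Without allograft day 4 replicate 1, however, 739 genes were called in the second of these tests, 526 higher and 213 lower on day 4. Without allograft day 3 replicate 1, 2 genes were called in the first, and without allograft day 2 replicate 3, 1 gene, which was Art3.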

How the data were processed

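RNA of sorted rat heart endothelium was measured on Affymetrix arrays. For each probe set the authors deposited a log2 value, and the submitters' processing notes name RMA and affy, whose versions are not given in the sources used here. Values were used as deposited. Array medians were 6.51 to 6.59 in endothelium and 6.83 to 6.88 in leukocytes, and the median difference to the day 3 allografts (0.316 log2) was taken off before levels were set side by side. Replicate arrays correlated across genes at 0.982 to 0.991 in day 3 allografts and 0.989 to 0.993 in normal DA. The number of arrays limits the precision.

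Of 31099 probe sets, 20826 matched 1 gene. Left out were 57 controls, 436 that matched several genes and 9780 unnamed here. The probe set with the highest mean was kept per gene and dim genes stayed in. limma 3.58.1 (R 4.3.3, lmFit and eBayes) was fitted to 24 endothelial arrays with 1 mean per group and 16 residual degrees of freedom. p-values were adjusted over 14217 genes by Benjamini-Hochberg in each comparison, and genes under 0.05 were called. On simulated data for day 3 allografts against normal DA, limma found 89% of 100 genes set 1 log2 apart and 100% of 100 genes set 2 log2 apart, with 10 false calls among 14017 unchanged genes. For the difference of changes it found 60% and 94% of them. Each gene was given independent noise of the same spread on all arrays, whereas weights fitted to the real arrays ran from 0.29 to 5.19. The simulation thus does not give the power on the real arrays. Promoter letters were searched in RefSeq windows. Tables and figures were made with pandas 2.3.3 and matplotlib 3.10.9.

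Named were the 12 highest and 12 lowest called genes with a symbol other than a locus number, up to 6 called each way in the difference of changes and between neighbouring days (0 passed), and members of 50 gene lists, called ones first. The members of the lists and the comparisons were chosen with earlier results of these data known. Alternatives were other fits, normalizations and probe set choices, each array left out, and a leukocyte covariate. The alternatives for isografts were chosen after seeing the data.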

Additional observations from a re-analysis of the deposited data

How the results depend on the processing

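With a single array left out in turn, 123 to 222 genes rose and 45 to 100 fell in day 3 allografts. The same fits gave 150 to 300 called genes in isografts (without isograft day 3 replicate 2 and 1), 0 to 2 between day 3 and day 2, and 0 to 739 between day 4 and day 3. With array weights 472 rose and 317 fell, 1591 were called in isografts, 2 in the difference of changes, 3 between day 3 and day 2 and 2041 between day 4 and day 3. With only the groups of a comparison fitted, 267 rose and 64 fell in allografts, 562 were called in isografts and 3 in the difference of changes. Between day 3 and day 2, 1 gene was called with the replicate block, without the dimmest genes, with repeated quantile normalization, with cyclic loess and with a trended robust prior. With the pan-leukocyte mean as a covariate, added to a design whose groups differ in it, 0 rose and 0 fell by limma (808 at an unadjusted p under 0.05), and Il1b stood at -0.26, Ccl3 at -0.41, Ccl4 at -0.58, Ccl7 at -0.14, Cfd at -0.13, Hmox1 at -0.15, Bcl2a1 at -0.54 and Itgax at -0.013 log2, with limma adjusted p of 0.867 to 0.995. The cause of these shifts was not tested. With the replicate block 248 rose and 114 fell. The main fit did not take the numbers to pair the samples. The deviations of same-numbered arrays correlated at 0.32, 0.07 and 0.36, and those of differently numbered arrays at -0.33 to 0.08. Whether a number stands for a shared day or batch was not tested. Of 101 named called genes, 61 kept their call with each array left out and 40 lost it at least once. Without the median taken off the leukocyte arrays, 152 of the genes that rose lay higher and 33 lower there. With it taken off, these counts were 148 and 41. Of the 103 genes that fell, 9 lay higher and 30 lower without it taken off, against 7 and 45 with it taken off. The background moved too. Of all 14217 genes, 2195 lay higher and 889 lower without it taken off, against 1433 and 1279 with it taken off.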
